A study of Homo sapiens with 13 samples.

Results

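Endoplasmic reticulum (ER) folding and unfolded protein response (UPR) genes were followed in hFOB 1.19 osteoblasts. The set held 33 genes, listed by symbol and matched to the rows of a table of 43836 genes. The rule itself used no measured value, but the list was drawn up with earlier results of these data known. All 33 passed the filter on low counts, as did 17092 genes in all. They comprised 7 chaperones and cochaperones, 4 disulfide isomerases, 2 lectin chaperones, 2 secreted ER stress proteins, 8 genes of ER-associated degradation, 6 sensors and transcription factors, and 4 genes of protein entry into and export from the ER.

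hFOB 1.19 is an immortalized human fetal osteoblast line, so every library came from 1 cell line. Positive controls (n = 2) were grown with 10% fetal bovine serum (FBS) and negative controls (n = 2) without it, both with the DMSO vehicle. RES (resveratrol, a stilbene, n = 3), POG (peonidin-3-O-glucoside, an anthocyanin, n = 3) and DEG (n = 2) were given at 1 µg/mL to osteoblasts without FBS. The labels do not spell out DEG, the hours of exposure before RNA was taken are not given in the sources used here, and although the methods describe RES and POG as added in triplicate, no source ties each library to its own culture, so p-values measure the spread between these libraries only.

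The ER folds the proteins that a cell secretes. An osteoblast, which secretes large amounts of collagen, depends on it. When unfolded proteins build up in the ER, the sensors ATF6, IRE1 (encoded by ERN1) and PERK (encoded by EIF2AK3) start the UPR: ATF6 is cut to release a transcription factor, IRE1 splices XBP1 mRNA, and PERK slows translation. The factors produced in this way raise the transcription of chaperones, disulfide isomerases and degradation genes through short promoter sequences, of which the ER stress response element (ERSE) is the best known.

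The ERSE consists of CCAAT and CCACG separated by 9 bases. On either strand it stood in the promoter window (250 bases before to 50 after the RefSeq start) of 6 of the 29 members with a window, or 20.7%. Those members were HSPA5, HSP90B1, CALR, CANX, CRELD2 and XBP1. Of all 35116 RefSeq windows, 27 held it (0.0769%). A related element, ERSE-II, in which ATTGG and CCACG are separated by 1 base, stood in HYOU1 (2 copies), SDF2L1 and HERPUD1, or 10.3% of members and 0.0541% of all windows. The CCACG part alone, which every ERSE and ERSE-II contains, was in 20 members (69.0%) and in 38.1% of all windows. The UPR element TGACGTGG was found in HYOU1 only, where it overlaps the ERSE-II (0.729% of all windows), and the cyclic AMP element TGACGTCA in CREB3L2 only (1.85% of all windows). PDIA3, DERL1, DERL3 and SEC24D had no window. A match of letters is a description and does not show that a factor binds. The members were listed as ER folding and UPR genes, and ERSE and ERSE-II were searched as elements of that response. The shares are thus not independent of how members and motifs were chosen.

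The 250 bases before the start of 4 members that held a full ERSE and passed the test in at least 1 comparison are shown on the coding strand, from RefSeq GRCh38.p14, because the element can be read in them directly. Capitals mark CCAAT and CCACG in each ERSE, or their complements ATTGG and CGTGG where it lies on the other strand. HSP90B1 held 2 copies. The windows lie at chr5:179698679-179698928 (CANX, plus strand), chr22:49918384-49918633 (CRELD2, plus strand), chr9:125241344-125241593 (HSPA5, minus strand) and chr12:103930160-103930409 (HSP90B1, plus strand).
CANX: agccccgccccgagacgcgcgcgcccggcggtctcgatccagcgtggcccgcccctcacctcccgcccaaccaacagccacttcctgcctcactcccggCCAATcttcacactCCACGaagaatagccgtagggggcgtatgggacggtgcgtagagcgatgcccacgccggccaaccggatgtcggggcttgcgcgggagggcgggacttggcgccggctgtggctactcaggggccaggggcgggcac
CRELD2: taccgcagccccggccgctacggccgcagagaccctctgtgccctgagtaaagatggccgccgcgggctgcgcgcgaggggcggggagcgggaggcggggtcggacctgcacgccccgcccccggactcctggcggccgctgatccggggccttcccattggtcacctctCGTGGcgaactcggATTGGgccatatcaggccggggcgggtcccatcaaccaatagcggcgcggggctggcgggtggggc
HSPA5: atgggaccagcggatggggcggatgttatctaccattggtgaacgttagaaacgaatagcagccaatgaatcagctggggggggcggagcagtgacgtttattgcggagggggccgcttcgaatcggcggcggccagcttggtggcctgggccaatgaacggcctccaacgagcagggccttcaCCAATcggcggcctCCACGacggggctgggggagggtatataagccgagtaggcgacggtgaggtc
HSP90B1: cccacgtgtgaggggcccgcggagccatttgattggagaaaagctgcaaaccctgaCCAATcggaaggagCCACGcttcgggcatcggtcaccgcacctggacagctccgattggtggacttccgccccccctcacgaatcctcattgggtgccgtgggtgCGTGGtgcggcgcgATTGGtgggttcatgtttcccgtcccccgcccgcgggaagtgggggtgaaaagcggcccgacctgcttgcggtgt

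**Figure D1:**
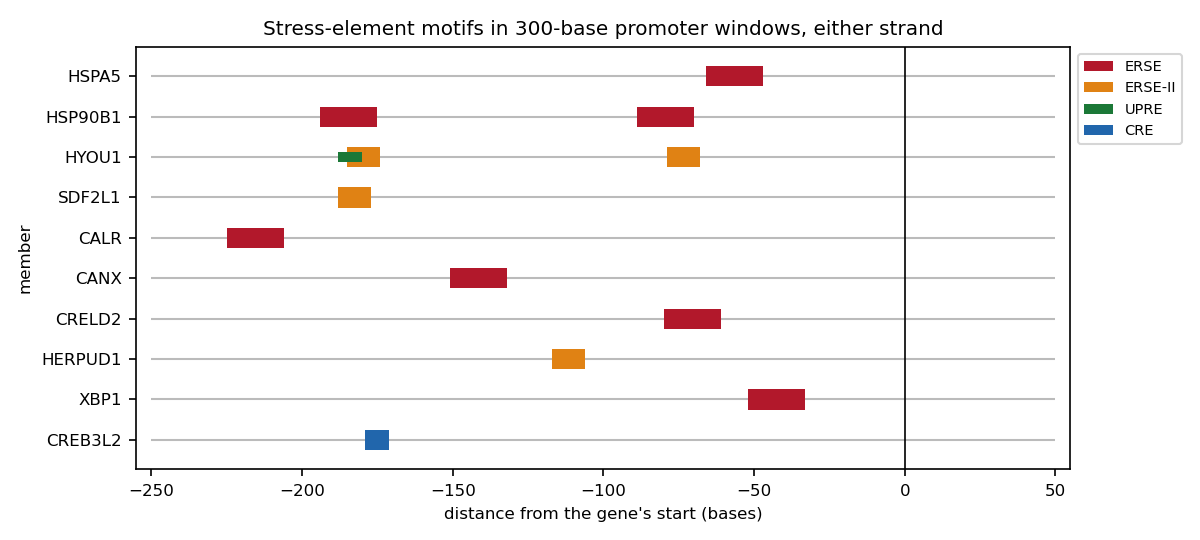
Position of each motif (coloured boxes) in the 300-base promoter windows of the 10 members that held an ERSE, ERSE-II, UPR element (UPRE) or cyclic AMP element (CRE), on a horizontal axis of bases from the gene's start. HSP90B1 shows 2 ERSE and HYOU1 2 ERSE-II, one of them overlapped by the UPRE, and every box lies before the start.

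Library totals ran from 38464619 to 51416358 counted reads, and mitochondrial reads took 3.03% to 3.91% of them. Values below are CPM, each library's reads scaled by its TMM-adjusted total. The positive controls differed from each other more than other pairs did, with a mean squared difference 10.997 times the Poisson expectation against 2.07 to 2.67 for pairs within the other groups. The osteoblast label was checked by markers: COL1A1 (2463 to 2869 CPM), COL1A2 and SPARC were above 1000 CPM and RUNX2 was at 44.3 to 51.6 CPM in all 12 libraries. Markers of mature osteoblasts were low, with ALPL at 3.22 to 6.66, SPP1 at 0.955 to 2.34 and BGLAP at 0.425 to 2.00 CPM, SP7 at 0.181 CPM or less, and IBSP with 1 read in all libraries together. Of the 9 markers of other cell types, CD3E had no reads and the highest level of any was 2.47 CPM (PECAM1). The summed osteoblast markers were 5462 to 5524 CPM in positive controls, 5263 to 5321 in negative controls, 4907 to 5035 with RES, 4751 to 4786 with POG and 4763 to 4769 with DEG, and their part in the results below was not tested.

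The members were expressed well above the typical gene. Their median level over all libraries was 116 CPM, against 17.5 CPM for all tested genes, and 32 of 33 averaged at least 10 CPM. Per kilobase of merged exons, in the negative controls, CALR had the highest level (445 CPM per kb), followed by PDIA4 (120), HSP90B1 (95.2) and HSPA5 (90.3). The lowest were DERL3 (1.07), ERN1 (1.39) and EIF2AK3 (1.48 CPM per kb), where the merged exons of ERN1 (19153 bases) and EIF2AK3 (20691 bases) were the longest of the members. In plain CPM both sensor genes, at 26.7 and 30.7, lay above the median of all tested genes. The order per kilobase depends on the merged length. In plain CPM PDIA4 (395, 3298 bases) lay below HSPA5 (589, 6530 bases) and HSP90B1 (1246, 13092 bases). Shares of all counted reads are given without TMM scaling. Together the members took 0.850% and 0.869% of reads in positive controls, 0.881% and 0.882% in negative controls and 0.874% to 0.880% with RES. With POG they took 0.920% to 0.925% and with DEG 0.918% to 0.922%. The POG and DEG libraries were thus all above the other 7. Abundant members weigh most in such a sum. HSP90B1 and CALR averaged 1346 and 1322 CPM with POG, both against 1246 CPM in negative controls, while HSPA5 averaged 587 against 589 CPM. Against the negative control, 18 of 33 members (54.5%) had a positive log2 fold change with POG, beside 50.7% of all tested genes. With DEG it was 20 members (60.6%), beside 50.3%. In bulk RNA, fewer cells of a kind and less RNA per cell cannot be told apart.

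Serum gave the most calls of the 4 comparisons with the negative control. Comparing positive with negative controls, 15 of 33 members were called by edgeR's exact test at a false discovery rate (FDR) under 0.05, 5 higher and 10 lower with serum. This share, 45.5%, stood beside 42.4% of all tested genes called (21.4% higher, 20.9% lower), so the members were called about as often as genes at large. Because members are highly expressed, the 9912 genes averaging at least 10 CPM are a closer background (a level chosen after the data were seen): 57.1% of them were called, against 14 of the 32 members at that level. The median log2 fold change was -0.03 for members and -0.01 for all tested genes. With dispersions from these 2 groups only, 11 members were called, 3 higher and 8 lower. With plain library totals in place of TMM the split was 4 higher and 14 lower, and leaving out 1 library gave 12 to 20 calls. The scaling also moved the split of all called genes: the share that was higher went from 50.6% to 41.0% for serum under plain totals, from 44.3% to 64.0% for RES, from 40.9% to 56.0% for POG and from 36.6% to 49.3% for DEG.

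Of 8 degradation genes 5 were lower with serum and none higher, and both lectin chaperones were lower. Of 4 isomerases 2 were higher, while PDIA3 and PDIA6 were not called. The groups were not tested against each other. DERL3, a Derlin of the channel through which misfolded proteins leave the ER, was at 1.84 and 1.23 CPM in positive controls (91 and 52 reads) and at 4.003 and 4.12 CPM in negative controls (155 and 164 reads). Its log2 fold change was -1.38 ± 0.19 (SE, edgeR FDR = 1.43e-13), the largest among members. Of its 3796 exon bases 2923 overlap SMARCB1 on the opposite strand, and the strand setting of the counting is not given in the sources used here, so its count is uncertain. CANX (calnexin), the membrane-bound lectin that holds newly made glycoproteins, had 435 and 442 CPM with serum and 522 and 531 without. The log2 fold change was -0.26 ± 0.03 (edgeR FDR = 3.34e-13). The groups did not overlap, which was also so for 11214 of all 17092 tested genes.

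SYVN1 (HRD1), the ubiquitin ligase of ER-associated degradation, was at 83.1 and 77.0 CPM with serum and 94.6 and 97.2 CPM without, a log2 fold change of -0.26 ± 0.04 (edgeR FDR = 5.88e-08). Of its 5495 exon bases 549 overlap other genes, among them FAU on the same strand. The SYVN1 partner SEL1L (log2 -0.19, FDR = 3.24e-04) and the lectin OS9 (-0.16, FDR = 1.92e-04), which hands glycoproteins to that ligase, were lower too, although 2821 of the 8692 exon bases of OS9 overlap other genes. EDEM1, which trims their mannose, had a log2 fold change of -0.13 (FDR = 0.0285) that was not called without positive control 1 (edgeR FDR = 0.597) or negative control 2 (0.258), or with dispersions from these 2 groups only (0.147). DNAJC3, a cochaperone of HSPA5, was at 51.1 and 54.4 CPM with serum and 63.5 and 64.6 CPM without (log2 -0.28 ± 0.05, FDR = 2.14e-07). In each of these genes both positive controls lay below both negative controls. Such separation, in either direction, was common: it was found in 11214 of all 17092 tested genes and in 28 of the 33 members. DNAJB9, another cochaperone, was lower by a log2 fold change of -0.23 (FDR = 0.00668), but not without negative control 1 (edgeR FDR = 0.108). CALR (calreticulin), the soluble lectin, was lower by -0.11 (FDR = 0.0103), a call lost without positive control 2 (0.189), negative control 1 (0.0874) or negative control 2 (0.0655), or with dispersions from these 2 groups only (0.182).

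CREB3L1 (OASIS), an ER membrane factor of the ATF6 type that acts on the collagen I gene in osteoblasts, was the member with the largest rise. It was at 221 and 217 CPM with serum and at 182 and 177 CPM without (log2 0.29 ± 0.04, edgeR FDR = 1.15e-11). P4HB, protein disulfide isomerase and a subunit of collagen prolyl hydroxylase, was at 1012 and 948 CPM with serum and at 874 and 890 CPM without (log2 0.15 ± 0.03, FDR = 1.11e-04). HSPA5 (BiP), the central chaperone of the ER and the usual readout of the UPR, was at 659 and 626 CPM against 587 and 591 CPM, higher by 9.01% (log2 0.12 ± 0.03, FDR = 0.00138); it was not called when dispersions came from those 2 groups only (FDR = 0.101). SEC61B, a subunit of the translocation channel, was higher by a log2 fold change of 0.22 (FDR = 6.30e-04), but not without positive control 1 (edgeR FDR = 0.0661) or negative control 1 (0.0688). PDIA4 was higher by 0.11 (FDR = 0.0112), but not without positive control 1 (0.112) or negative control 2 (0.144), with plain library totals (0.137) or with dispersions from these 2 groups only (0.171).

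Of the UPR sensors, EIF2AK3 passed the test with serum. It was at 25.6 and 26.2 CPM in positive controls and at 31.4 and 29.9 CPM in negative controls (log2 -0.24 ± 0.06, edgeR FDR = 4.23e-04). ERN1 was at 22.7 and 25.6 CPM against 26.2 and 27.1 CPM (log2 -0.15, FDR = 0.0889). It was called with plain library totals (FDR = 0.0229) and without positive control 2 (0.0114). ATF6 was at 86.0 and 90.9 CPM against 91.1 and 91.7 CPM (log2 -0.05, 95% interval -0.14 to 0.04). XBP1 was at 154 and 142 CPM against 154 and 159 CPM (log2 -0.08, interval -0.16 to 0.00, FDR = 0.139). It was called with plain library totals (FDR = 0.0144) and without positive control 1 (0.00247). Gene counts do not tell spliced from unspliced XBP1 mRNA.

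**Figure D2:**
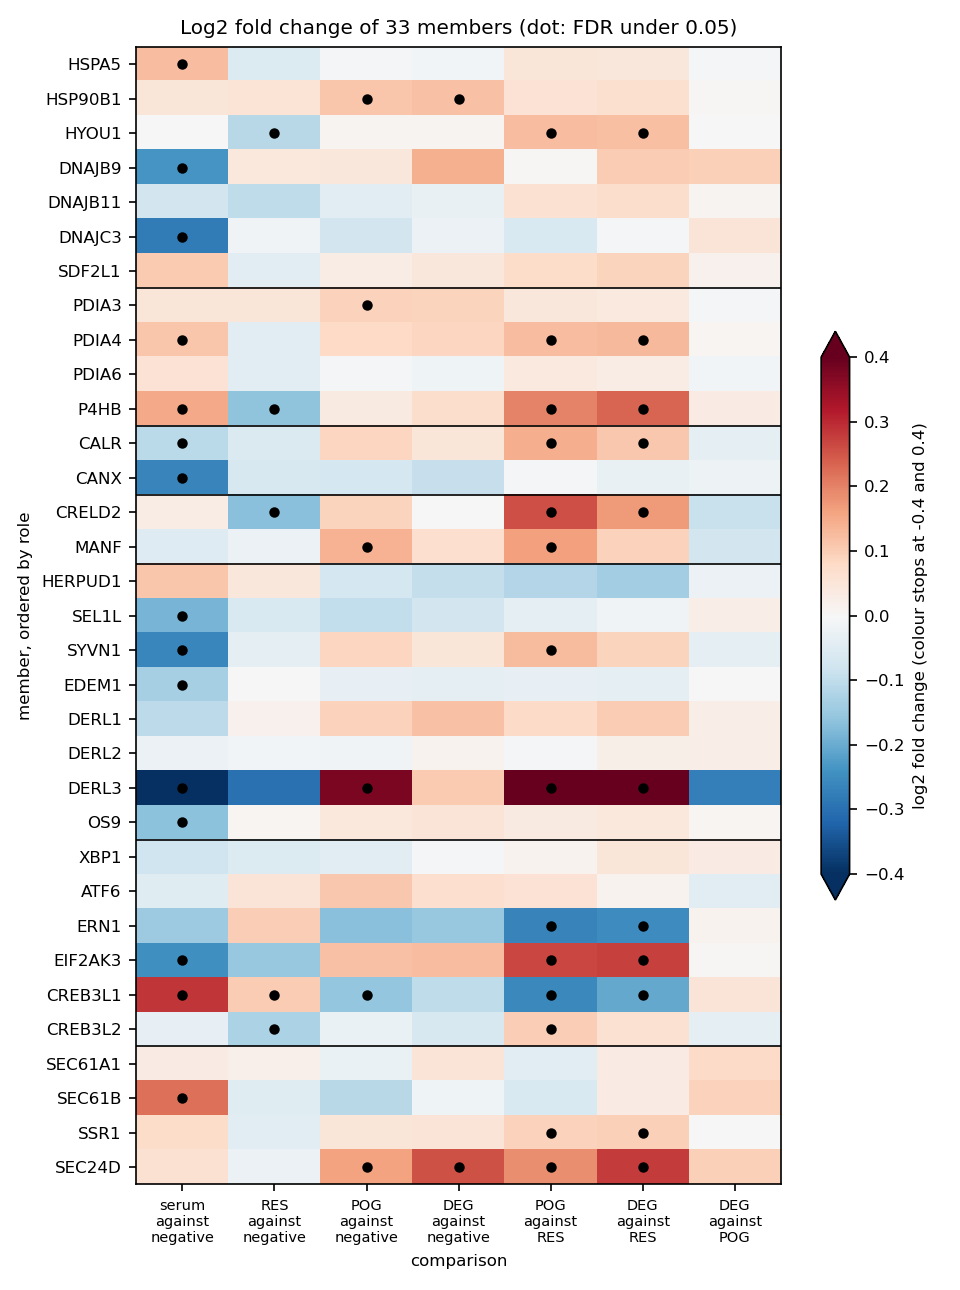
Log2 fold change of the 33 members, in rows ordered by role, in the 7 comparisons, in columns, as colour that stops at -0.4 and 0.4, with a dot where edgeR's exact test gave an FDR under 0.05. The serum column has 15 dots, RES 5, POG 6, DEG 2, POG against RES 14, DEG against RES 11 and DEG against POG none.

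Resveratrol moved few members, and those by small amounts. Against the negative control, 5 of 33 members were called with RES, 1 higher and 4 lower. That is 15.2% of members, beside 11.2% of all tested genes (4.94% higher, 6.21% lower) and 15.7% of genes at 10 CPM or more. The members' median log2 fold change was -0.04, against 0.00 for all tested genes. With plain library totals 1 member was higher and 1 lower, and leaving out 1 library gave 1 to 3 calls. The 2 negative controls enter all 3 comparisons of a compound with the negative control, so these are not independent of each other.

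P4HB was the 1 member called with RES in every setting tried. The RES libraries had 782, 785 and 797 CPM of P4HB and the negative controls 874 and 890 CPM, so that all 3 lay below both controls. RES and negative controls did not overlap in 6998 of all 17092 tested genes and in 21 of the 33 members. The change in P4HB was -10.6% (log2 -0.16 ± 0.03, edgeR FDR = 3.18e-05). CRELD2, a secreted protein induced by ER stress, of whose 5166 exon bases 168 overlap ALG12 on the opposite strand, was at 30.9, 30.6 and 28.8 CPM with RES and at 33.6 and 34.1 CPM in negative controls (log2 -0.17 ± 0.05, FDR = 0.0243). Its call was lost without negative control 1 (edgeR FDR = 0.132), negative control 2 (0.225) or RES 3 (0.142). Plain library totals (0.0718) and no filter on low counts (0.0675) lost it too. HYOU1, an ER chaperone that exchanges the nucleotide of HSPA5, was at 289, 286 and 299.7 CPM against 308 and 321 CPM (log2 -0.11 ± 0.03, FDR = 0.0152). It was not called without negative control 2 (0.379), RES 1 (0.0747) or RES 2 (0.102). Nor was it called with plain library totals (0.0946) or no filter on low counts (0.0737).

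The CREB3-type factors moved in opposite directions with RES. CREB3L2, which acts in collagen secretion by chondrocytes, was at 362, 373 and 369.8 CPM with RES and at 398 and 405 CPM in negative controls (log2 -0.13 ± 0.03, edgeR FDR = 0.0187). The call was lost without negative control 1 (FDR = 0.101), negative control 2 (0.240), RES 1 (0.106) or RES 3 (0.0558), and with plain library totals (0.0997). CREB3L1 was at 192, 196 and 191 CPM against 182 and 177 CPM (log2 0.10 ± 0.03, FDR = 0.0482). This call stood at the threshold: it was lost without any 1 of the 5 libraries compared, with FDR from 0.0893 (without RES 3) and 0.0902 (without RES 1) through 0.134 (negative control 1) and 0.176 (RES 2) to 0.375 (negative control 2). It was also lost with DESeq2 size factors (edgeR FDR = 0.0502) and with no filter on low counts (0.0989).

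No sensor of the UPR was called with RES, although EIF2AK3 was under 2 other settings. EIF2AK3 was at 28.0, 26.1 and 28.8 CPM against 31.4 and 29.9 CPM (log2 -0.15, edgeR FDR = 0.0681). The groups did not overlap, which was also so for 6998 of all 17092 tested genes. EIF2AK3 was called without RES 3 (FDR = 0.0488) and with dispersions from these 2 groups only (0.0471). ERN1 was at 30.0, 27.1 and 28.5 CPM (log2 0.10, 95% interval -0.03 to 0.23). ATF6 was at 94.2, 94.95 and 95.3 CPM (log2 0.05, interval -0.03 to 0.13) and XBP1 at 153.2, 152.8 and 146 CPM (log2 -0.06, interval -0.13 to 0.02). HSPA5 stood at 569.9, 564 and 568 CPM, with a log2 fold change of -0.05 (interval -0.11 to 0.00) and an FDR of 0.2997.

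**Figure D3:**
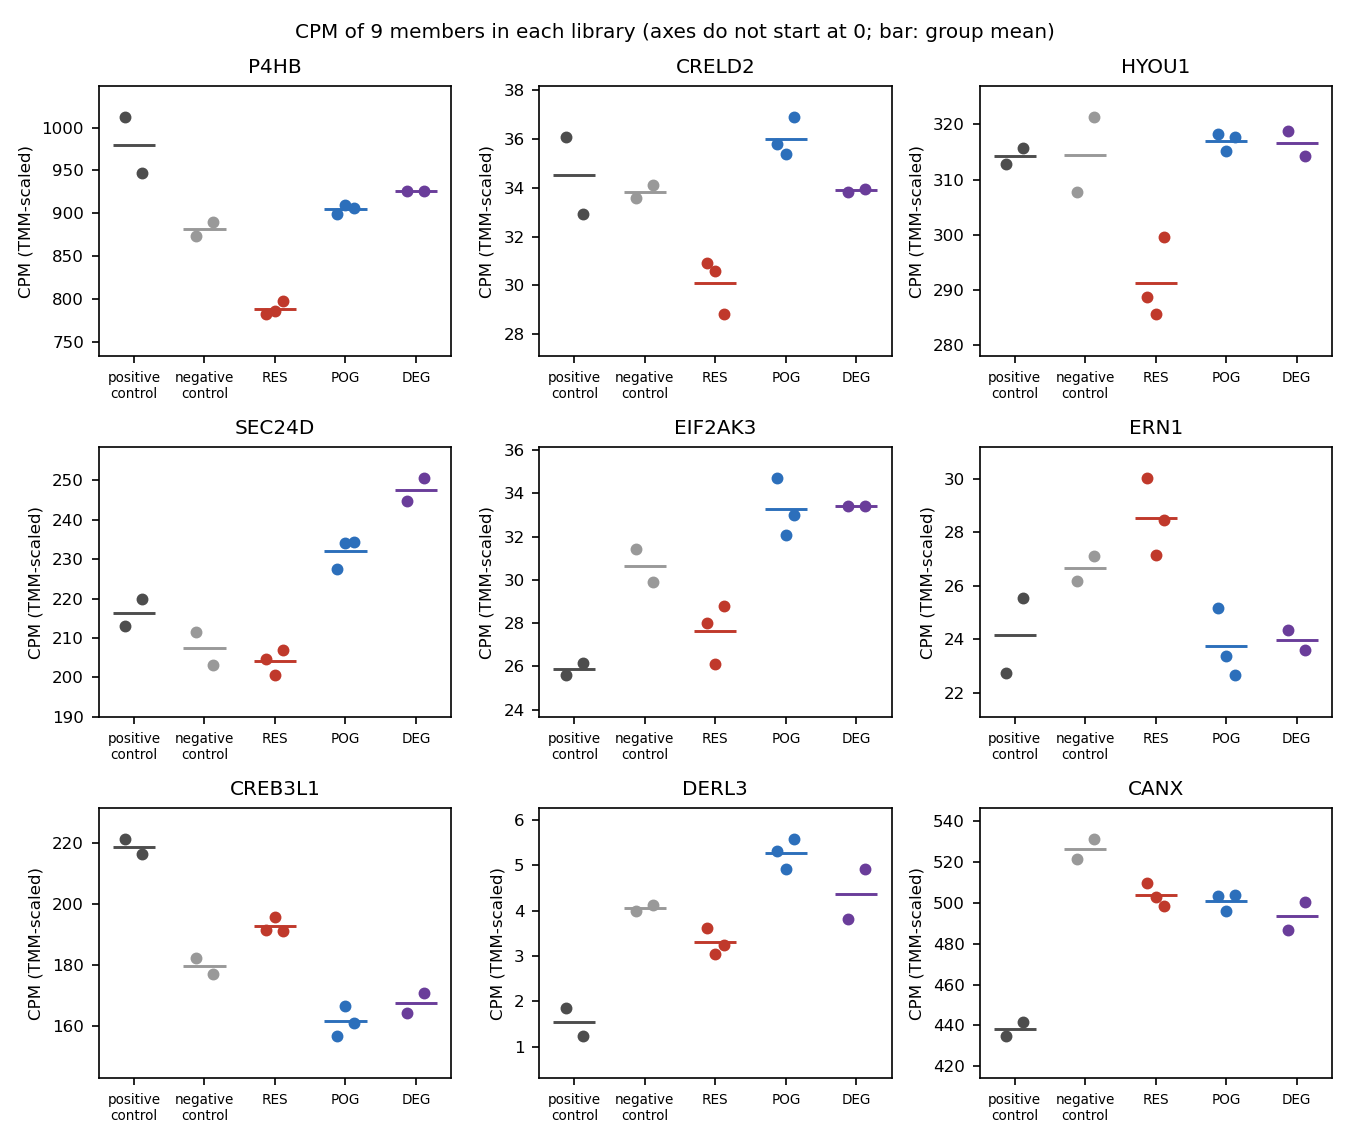
CPM of 9 members in each of the 12 libraries, by group, on axes that do not start at 0, with each point 1 library and each bar the group mean. P4HB is lowest in the 3 RES libraries (782 to 797 CPM), SEC24D highest in the DEG libraries (245 and 250.4 CPM), and CREB3L1 lowest in the POG and DEG libraries (157 to 171 CPM).

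With POG the members called were mostly higher. Against the negative control 6 of 33 were called, 5 higher and 1 lower, or 18.2%. Of all tested genes 14.5% were called (5.93% higher, 8.57% lower), and of genes at 10 CPM or more 19.9%. The members' median log2 fold change was 0.03, against 0.00 for all tested genes. With plain library totals 9 were higher and 1 lower, and without 1 of the negative controls 2 were left.

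SEC24D, a subunit of the COPII coat that selects cargo for export from the ER, was called with POG in every setting tried. It was at 228, 234 and 234 CPM with POG and at 212 and 203 CPM in negative controls, a log2 fold change of 0.16 ± 0.03 (edgeR FDR = 1.11e-04). All 3 POG libraries were above both controls. POG and negative controls did not overlap in 7542 of all 17092 tested genes and in 23 of the 33 members. CREB3L1 was lower, at 157, 167 and 161 CPM against 182 and 177 CPM (log2 -0.15 ± 0.03, FDR = 5.24e-04). Without negative control 1 its FDR was 0.0636. It was the 1 member called with both RES and POG against the negative control, and in opposite directions.

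The chaperone HSP90B1 (endoplasmin) was at 1343, 1343 and 1353 CPM with POG and at 1258 and 1235 CPM in negative controls (log2 0.11 ± 0.02, edgeR FDR = 0.00362), but leaving out negative control 2 ended the call (FDR = 0.118). MANF, a secreted protein released on ER stress, was at 124, 124 and 126 CPM against 113 and 113 CPM (log2 0.14 ± 0.04, FDR = 0.00429). It was not called without negative control 1 (0.0719) or negative control 2 (0.0721). PDIA3, the isomerase that works with the lectin chaperones, was at 711, 695 and 713 CPM against 666 and 659 CPM (log2 0.09 ± 0.03, FDR = 0.0322). Its call was lost without negative control 1 (0.151), negative control 2 (0.239), POG 1 (0.121) or POG 3 (0.133). No filter on low counts (0.0717) lost it too. DERL3, whose count shares bases with SMARCB1, was at 5.33, 4.92 and 5.57 CPM against 4.003 and 4.12 CPM (log2 0.38 ± 0.14, FDR = 0.0480). That call was lost without any 1 of the libraries (FDR from 0.05001 without POG 2, 0.120 without POG 1, 0.178 without POG 3 and 0.199 without negative control 2 to 0.271 without negative control 1). It was also lost with the quasi-likelihood test (0.0818), with DESeq2 (0.113) and with no filter on low counts (0.0594).

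No sensor passed the exact test with POG under TMM scaling and dispersions from all 12 libraries, but ATF6 and ERN1 did under other settings. ATF6 was at 101, 93.9 and 101 CPM against 91.1 and 91.7 CPM in negative controls (log2 0.11, edgeR FDR = 0.0567), and was called with plain library totals (FDR = 0.0142), without POG 2 (0.0163) and with dispersions from these 2 groups only (0.00525). ERN1 was at 25.2, 23.4 and 22.7 CPM against 26.2 and 27.1 CPM (log2 -0.17, FDR = 0.0605), and was called without POG 1 (0.0294) and with dispersions from these 2 groups only (0.0210). EIF2AK3 was at 34.7, 32.1 and 33.03 CPM (log2 0.12, 95% interval 0.01 to 0.23, FDR = 0.158) and XBP1 at 149, 154 and 154 CPM (log2 -0.04, interval -0.12 to 0.03). HSPA5 was at 583, 589 and 589 CPM, where the negative controls had 587 and 591 CPM (log2 -0.01, interval -0.06 to 0.05).

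With DEG, which had 2 libraries, 2 of 33 members were called against the negative control, both higher, or 6.06%, where 9.63% of all tested genes (3.52% higher, 6.11% lower) and 13.8% of genes at 10 CPM or more were called. The members' median log2 fold change was 0.04. SEC24D was at 245 and 250.4 CPM with DEG against 212 and 203 CPM, a rise of 19.4% (log2 0.26 ± 0.03, edgeR FDR = 3.59e-09), called in every setting tried. HSP90B1 was at 1352 and 1351 CPM against 1258 and 1235 CPM (log2 0.12 ± 0.03, FDR = 0.00807). It was not called without negative control 2 (0.142), DEG 1 (0.108) or DEG 2 (0.0981), and the count of members called was then 1. With dispersions from these 2 groups only, 8 members were called.

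No sensor was called with DEG. EIF2AK3 was at 33.4 CPM in both DEG libraries (log2 0.12 against the negative control, 95% interval 0.00 to 0.25, edgeR FDR = 0.231) and ERN1 at 24.4 and 23.6 CPM (log2 -0.15, FDR = 0.192). ATF6 was at 95.1 and 96.5 CPM (log2 0.07, 95% interval -0.02 to 0.16). XBP1 was at 160.1 and 151 CPM (log2 -0.01, interval -0.09 to 0.08). CREB3L1 was at 164 and 171 CPM, below both negative controls, with a log2 fold change of -0.10 that missed the threshold (FDR = 0.0972). DEG and negative controls did not overlap in 8851 of all 17092 tested genes.

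More members were called between RES and the other compounds than between any compound and the negative control, and so were more genes at large. At the same dose, 3 pairs of compounds were compared. For POG against RES, 14 of 33 members were called, 12 higher and 2 lower with POG, or 42.4%. Of all tested genes 27.9% were called (13.7% higher, 14.1% lower), and of genes at 10 CPM or more 37.6% (20.1% higher, 17.5% lower), where 11 of 32 members were higher and 2 lower. The members' median log2 fold change was 0.06, against 0.00 for all tested genes. For DEG against RES, 11 were called, 9 higher and 2 lower, or 33.3%, beside 21.2% of all tested genes (10.3% higher, 10.8% lower) and 28.8% of genes at 10 CPM or more (16.0% higher, 12.8% lower). Their median log2 fold change was 0.06 too. The libraries of the 2 compounds did not overlap in 7188 of all 17092 tested genes for POG against RES, and in 20 of the 33 members. For DEG against RES it was 8273 of all tested genes and 22 members. RES and the anthocyanin POG differ in their whole carbon skeleton, and POG carries a sugar that RES lacks. Whether this bears on the calls was not tested.

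Among chaperones, isomerases and lectins the called members were all higher with POG or DEG than with RES, and these 2 comparisons share the RES libraries. P4HB was at 899.6, 909.9 and 906 CPM with POG and at 926 and 926 CPM with DEG, against 782, 785 and 797 CPM with RES. The log2 fold changes were 0.20 ± 0.02 (POG, edgeR FDR = 2.95e-10) and 0.23 ± 0.03 (DEG, FDR = 6.03e-11), and both calls were kept in every setting. CALR had means of 1322 ± 2.09 (SD, n = 3) CPM with POG, 1287 ± 3.26 (n = 2) with DEG and 1196 ± 9.68 (n = 3) with RES, log2 0.15 and 0.11 above RES. PDIA4 was higher by log2 0.12 (POG) and 0.13 (DEG), and HYOU1 by 0.12 in both. With DEG, CALR was not called without DEG 1 (edgeR FDR = 0.118) or DEG 2 (0.0938), PDIA4 not without DEG 1 (0.0807) and HYOU1 not without DEG 1 (0.0985).

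Both secreted stress proteins were higher with POG than with RES, and CRELD2 also with DEG. CRELD2 was at 35.8, 35.4 and 36.9 CPM with POG, above all RES libraries (30.9, 30.6 and 28.8 CPM), a log2 fold change of 0.26 ± 0.05 (edgeR FDR = 1.05e-06). With DEG it was at 33.8 and 34.0 CPM (log2 0.17 ± 0.05 above RES, FDR = 0.0124), a call lost without RES 3 (0.0880), DEG 1 (0.0970) or DEG 2 (0.112). MANF was at 112, 114 and 108 CPM with RES and higher with POG (log2 0.16 ± 0.03, FDR = 2.15e-05). With DEG it was at 120.2 and 117 CPM (log2 0.09 above RES, not called).

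Of the degradation genes, DERL3 and SYVN1 were called. DERL3 was at 3.61, 3.04 and 3.25 CPM with RES (161, 136 and 145 reads), below all POG libraries (log2 0.68 ± 0.13, edgeR FDR = 9.16e-07). In DEG it was at 3.82 and 4.91 CPM (log2 0.40 ± 0.15, FDR = 0.0293). This second call was lost without RES 2 (0.124), RES 3 (0.0764) or DEG 2 (0.542), with the quasi-likelihood test (0.0533) and with DESeq2 (0.0705). SYVN1 was at 102, 101 and 102 CPM with POG against 94.3, 94.6 and 91.2 CPM with RES (log2 0.13 ± 0.03, FDR = 0.00295).

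Of the sensors, EIF2AK3 was called higher and ERN1 lower with POG and with DEG than with RES, and ATF6 was not called. EIF2AK3 was at 34.7, 32.1 and 33.03 CPM with POG and 33.4 CPM in both DEG libraries, all above the 28.0, 26.1 and 28.8 CPM of RES. Its log2 fold changes were 0.27 ± 0.05 (POG, edgeR FDR = 1.18e-06) and 0.27 ± 0.06 (DEG, FDR = 2.43e-05). ERN1 was at 25.2, 23.4 and 22.7 CPM with POG and 24.4 and 23.6 CPM with DEG, all below the 30.0, 27.1 and 28.5 CPM of RES. Its log2 fold changes were -0.27 ± 0.06 (POG, FDR = 3.02e-05) and -0.25 ± 0.06 (DEG, FDR = 0.00118), the latter lost without DEG 2 (0.0546). ATF6 and XBP1 were called in none of the 7 comparisons, with log2 fold changes from 0.01 to 0.06 for POG and DEG against RES.

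CREB3L1 and SEC24D separated RES from both other compounds. CREB3L1 was at 192, 196 and 191 CPM with RES, above the 157, 167 and 161 CPM of POG (log2 -0.26 ± 0.03, edgeR FDR = 1.77e-13) and the 164 and 171 CPM of DEG (log2 -0.20 ± 0.03, FDR = 8.78e-07). SEC24D was at 205, 201 and 207 CPM with RES and higher by log2 0.19 ± 0.03 with POG (FDR = 6.52e-08) and 0.28 ± 0.03 with DEG (FDR = 1.27e-13). All 4 calls were kept in every setting tried. CREB3L2 was higher with POG (395 ± 4.88 CPM, SD, n = 3) than with RES (368 ± 5.93, n = 3), log2 0.10, but not without RES 1 (edgeR FDR = 0.116), RES 3 (0.0577), POG 1 (0.0839) or POG 3 (0.0895). SSR1, a subunit of the translocon-associated complex, was higher by log2 0.09 in both comparisons. With POG it lost its call without RES 1 (0.0671), RES 2 (0.106) or POG 3 (0.129), and with no filter on low counts (0.0566). With DEG it lost its call without RES 1 (0.114), RES 2 (0.160), DEG 1 (0.287) or DEG 2 (0.144). Plain library totals (0.0718) and no filter (0.151) lost the DEG call too.

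Between DEG and POG no member was called by edgeR's exact test (0 of 33, or 0%), nor by the quasi-likelihood test or DESeq2, and 3 had an unadjusted p under 0.05. Of all tested genes 1.05% were called (0.550% higher, 0.497% lower). With dispersions from these 2 groups only, 2 members were called. The smallest FDR belonged to SEC24D (0.197, log2 0.09, 95% interval 0.03 to 0.16). A missed threshold does not show that the compounds act alike, so the intervals are given: the 95% interval of the log2 difference lay within 0.1 of 0 for 13 members, within 0.2 for 30 and within 0.3 for 32. DERL3, the exception, had -0.27 with an interval from -0.56 to 0.02, where DEG had 148 and 193 reads.

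**Figure D4:**
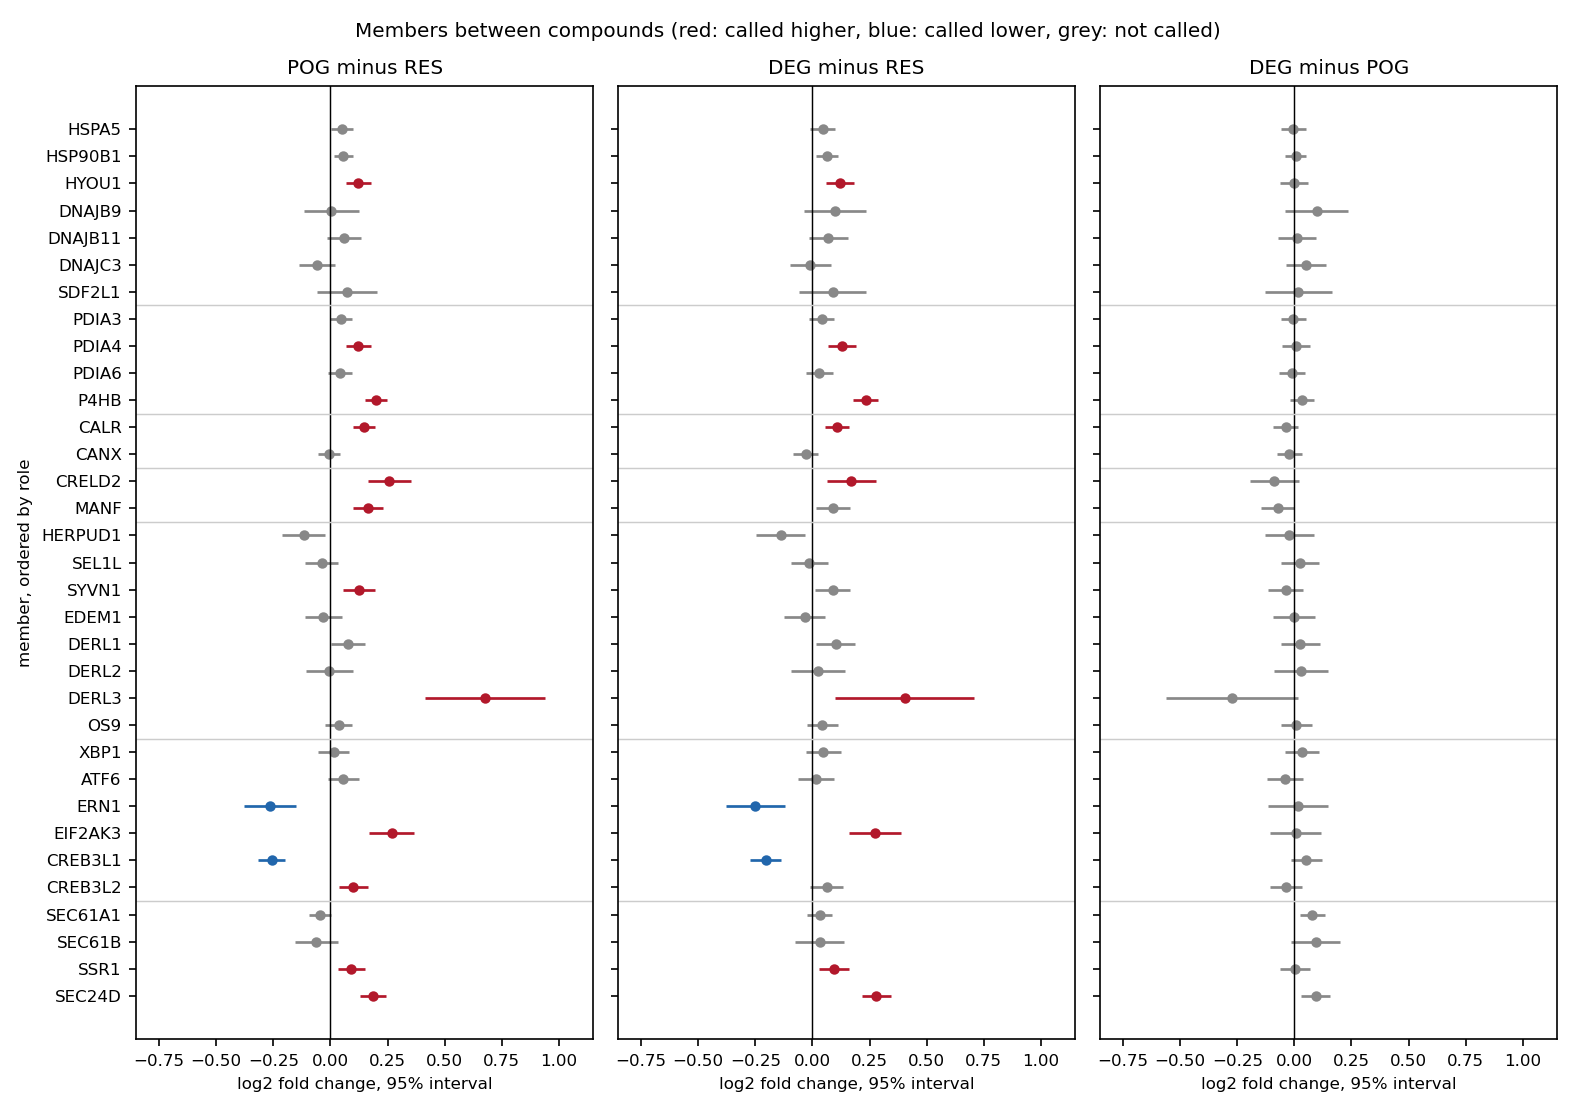
Log2 fold change of each member (points) with its 95% interval (lines) for POG against RES, DEG against RES and DEG against POG, in red where called higher, blue where called lower and grey where not called. The first panel has 12 red and 2 blue points, the second 9 red and 2 blue, and the third only grey ones.

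Over the 7 comparisons, 24 members were called at least once and 9 never: DNAJB11, SDF2L1, PDIA6, HERPUD1, DERL1, DERL2, XBP1, ATF6 and SEC61A1. HERPUD1, an adaptor of degradation that the UPR induces strongly, ranged from 30.3 to 36.4 CPM over all libraries. SDF2L1 ranged from 17.3 to 22.2, DNAJB11 from 62.8 to 69.8, DERL1 from 67.2 to 83.4 and DERL2 from 26.4 to 29.7 CPM. PDIA6 lay between 329 and 370.4 CPM and SEC61A1, the pore of the translocation channel, between 372 and 399.5 CPM. By the exact test HSPA5 was called with serum alone, and no compound gave a call for it, either against the negative control or against another compound.

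Members with an ERSE or ERSE-II were found among called and uncalled genes. With serum, where 42.4% of all tested genes were called, 1 of these 9 was higher and 2 were lower, and of the 20 with neither element 4 were higher and 7 lower. For POG against RES, where 27.9% of all tested genes were called, 3 of 9 were higher and none lower, beside 7 higher and 2 lower of 20. Of the 9 carriers, CRELD2, HYOU1 and CALR were called in both comparisons of another compound with RES, and HSPA5, HSP90B1, CANX, SDF2L1, HERPUD1 and XBP1 in no comparison between compounds.

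A wider list of 100 other ER and UPR genes, of which 98 were tested, was counted in the same fit. With serum 50 of 98 were called (32 higher, 18 lower), a share between the 42.4% of all tested genes and the 57.1% of those at 10 CPM or more. RES gave 12 calls (2 higher, 10 lower), or 12.2%, beside 11.2% and 15.7%. POG gave 20 (18 higher, 2 lower), or 20.4%, beside 14.5% and 19.9%. The serum and RES shares thus lay between those of the 2 backgrounds, and the POG share lay near the second. DEG gave 22 (20 higher, 2 lower), or 22.4%, beside 9.63% and 13.8%. POG against RES gave 42 (37 higher, 5 lower), or 42.9%, beside 27.9% and 37.6%, and DEG against RES 41 (37 higher, 4 lower), or 41.8%, beside 21.2% and 28.8%. DEG against POG gave none, with 14 at an unadjusted p under 0.05. With plain library totals the split was 25 higher and 23 lower with serum, and 7 higher and 3 lower with RES, so the direction of the RES calls depended on the scaling. Under the same scaling POG had 27 higher and 2 lower, and DEG 25 higher and none lower.

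The other genes of export from the ER were mostly called higher with POG and DEG than with RES. Of 17 other COPII genes, 12 were higher and 1 lower for POG against RES, where 13.7% of all tested genes were higher and 14.1% lower, and 13 were higher and none lower for DEG against RES, where 10.3% of all were higher and 10.8% lower. Against the negative control 7 were higher and 1 lower with POG, 9 higher with DEG, and 4 lower with RES, beside 14.5%, 9.63% and 11.2% of all tested genes called in either direction. With serum 7 were higher and 1 lower, beside 42.4% of all called. KDELR3, a receptor that returns chaperones from the Golgi to the ER, was at 93.7 ± 0.08 (SD, n = 2) CPM with DEG and 78.4 ± 0.93 (n = 2) in negative controls (log2 0.26, edgeR FDR = 1.44e-05).

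Among 18 other folding and oxidation genes, 7 were higher and 5 lower with serum, 2 higher and 1 lower with RES, 7 higher with POG and 5 higher with DEG. Of all tested genes 42.4%, 11.2%, 14.5% and 9.63% were called in these comparisons. TXNDC5, a disulfide isomerase, was at 23.9 and 21.7 CPM with serum and at 10.2 and 6.69 CPM in negative controls (log2 1.43 ± 0.15, edgeR FDR = 1.08e-18). It was at 12.96, 15.6 and 13.9 CPM with POG (log2 0.75, FDR = 1.05e-05) but lost this call without negative control 2 (FDR = 0.0513). Against RES, where it was at 5.11, 7.53 and 8.21 CPM, it was higher with POG (log2 1.02) and with DEG (log2 0.64), the latter not without DEG 1 (edgeR FDR = 0.137) or with DESeq2 (0.0525). Whether the exons of TXNDC5 overlap another gene was not checked. P4HA1, the catalytic subunit that joins P4HB in collagen prolyl hydroxylase, had 181 ± 1.84 (SD, n = 3) CPM with POG, 177 ± 1.17 (n = 2) with DEG, 147 ± 0.90 (n = 2) in negative controls and 138 ± 1.87 (n = 3) with RES. Its log2 fold changes against the negative control were 0.30 with POG (FDR = 4.54e-16) and 0.27 with DEG (FDR = 3.36e-10), and 0.36 for DEG against RES (FDR = 4.31e-23). ERO1B, an oxidase that recharges the isomerases, was higher with POG than with RES (log2 0.42, FDR = 1.22e-04).

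**Figure D5:**
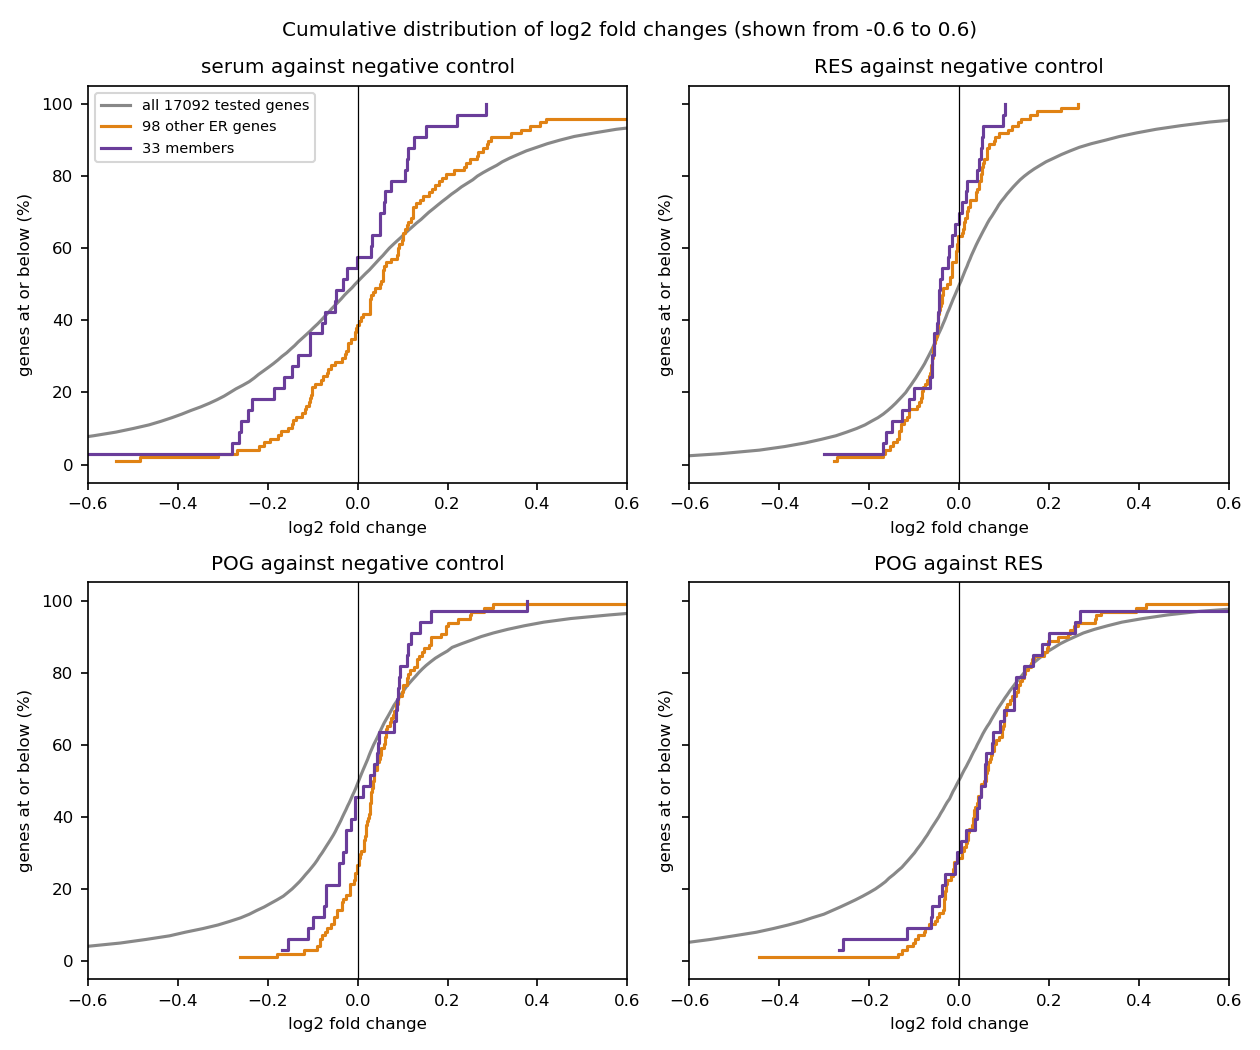
Cumulative share of genes, in percent, at or below each log2 fold change (shown from -0.6 to 0.6) for all 17092 tested genes, the 98 other ER genes and the 33 members, with serum, RES and POG against the negative control and for POG against RES. The members' median lies at -0.03 with serum, -0.04 with RES, 0.03 with POG and 0.06 for POG against RES.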

How the data were processed

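Polyadenylated RNA of 12 hFOB 1.19 libraries was measured by mRNA-seq. The labels list 13 samples, and DEG replicate 3 has no column and was not analysed here. The deposited table holds raw read counts per gene, not normalized. Per the labels and methods, the authors aligned reads to hg38 with STAR (BWA MEM was also named) and counted Ensembl genes with featureCounts. Versions, strand setting and handling of multi-mapped reads are not given in the sources used here. Library totals ran from 38464619 to 51416358 reads.

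Counts were analysed in R 4.3.3 with edgeR 4.0.16 (filterByExpr by group, TMM scaling, dispersions over all 12 libraries, exact test as in the study), with Benjamini-Hochberg adjustment over 17092 genes and calls at FDR under 0.05. Standard errors and 95% intervals came from the quasi-likelihood fit. The test was run on simulated counts drawn with the same spread in every group. That simulation does not cover the wider spread between the positive controls. Groups came from the labels, and replicate numbers are names in accession order. Members, lists and motifs were chosen with earlier results of these data known. Every member is counted, and members among the 6 largest absolute fold changes called in a comparison, plus ATF6, ERN1, EIF2AK3 and XBP1, have a value in each library. Other members have at most a sentence, and up to 3 called genes of the wider list are named per comparison. Alternatives were the quasi-likelihood test, DESeq2 1.42.0, DESeq2 size factors, plain totals, no filter, dispersions from 2 groups, and leaving out each library. Exon lengths and overlaps came from GENCODE v44 and promoters from RefSeq GRCh38.p14. The exons of 19 members overlap another gene, so those counts are uncertain. Overlaps were not checked for genes of the wider list. Pseudogene reads were at most 0.740% of a member's own (PDIA3).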

Additional observations from a re-analysis of the deposited data

Results flagged for a closer look

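CREB3L1 was the 1 member called against the negative control with both RES and POG in opposite directions and also called in the direct comparison of these compounds. Against the negative control its log2 fold change was 0.10 with RES (edgeR FDR = 0.0482) and -0.15 with POG (FDR = 5.24e-04), and for POG against RES it was -0.26 (FDR = 1.77e-13), with all 3 POG libraries below all 3 RES libraries. POG and RES libraries did not overlap in 7188 of all 17092 tested genes. The comparison of the 2 compounds was called for CREB3L1 in every setting tried. The RES call was lost without any 1 of the 5 libraries compared (FDR 0.0893 to 0.375) and the POG call without negative control 1 (FDR = 0.0636). DESeq2 size factors (edgeR FDR = 0.0502) and no filter on low counts (0.0989) also lost the RES call.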

How the results depend on the processing

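The values followed here were those of members, and of named genes of the wider list, called in the main test. ATF6, ERN1, EIF2AK3 and XBP1 were also followed, called or not, in the 4 comparisons with the negative control. Only these 4 genes could therefore gain a call in the tally below. No followed log2 fold change that was called in either setting reversed. Changes of sign in values called in neither setting were not counted. Of 516 values under another test, scaling, filter or dispersion, 486 kept their side of the threshold, 24 lost a call and 6 gained one. Of 417 values with 1 library left out, 341 kept it, 71 lost a call and 5 gained one. With dispersions from only the 2 groups compared, calls among the wider list were 31 with serum (50 in the main test) and 23 with RES (12). They were 35 with POG (20) and 37 with DEG (22). Between compounds they were 53 for POG against RES (42), 49 for DEG against RES (41) and 8 for DEG against POG (0). Calls among members fell to 11 with serum (15). They rose to 7 with RES (5), 14 with POG (6) and 8 with DEG (2). Between compounds, members called rose to 20 for POG against RES (14), 17 for DEG against RES (11) and 2 for DEG against POG (0). With plain library totals 2 members were called with RES (5 in the main test), 10 with POG and 4 with DEG, and DESeq2 also called 4 with DEG. Without the filter on low counts 2 members and 6 genes of the wider list were called with RES, and 1 of the wider list for DEG against POG. The cause was not tested. Plain totals moved the median of all genes by -0.04 (serum) to 0.03 (RES) on the log2 scale. Leaving out 1 library gave 12 to 20 members with serum, 1 to 3 with RES, 2 to 6 with POG, 1 to 2 with DEG, 12 to 14 for POG against RES, 6 to 10 for DEG against RES and 0 for DEG against POG. For the wider list it gave 39 to 57 with serum, 4 to 9 with RES, 11 to 16 with POG, 14 to 16 with DEG, 32 to 37 for POG against RES, 26 to 36 for DEG against RES and 0 for DEG against POG. No paired analysis was possible because replicate numbers were given in accession order only. DERL3, with 52 to 259 reads a library, is the member most limited by depth.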

Other observations

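Other groups of the wider list had these calls. Of 13 genes of N-glycosylation, 6 were higher and none lower both for POG against RES and for DEG against RES, where 13.7% and 10.3% of all tested genes were higher. With serum 2 were higher and 3 lower (38.5%, beside 42.4% of all tested genes called). Of 16 genes of translocation and signal peptide cleavage, 8 were higher and 2 lower with serum. That is 62.5%, beside 42.4% of all tested genes and 57.1% of those at 10 CPM or more. SSR3 had the largest log2 fold change of this group with serum (0.78 ± 0.03 SE, edgeR FDR = 2.49e-88). Of 16 other degradation genes, 4 were higher and 3 lower with serum (43.8%, near the 42.4% of all). In that group STC2, a secreted glycoprotein that ER stress can induce, was lower with RES (log2 -0.27 ± 0.03, FDR = 1.35e-11) and ERLEC1, an ER lectin, higher with DEG (log2 0.26 ± 0.04, FDR = 1.03e-06).

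Of 10 genes of the PERK-ATF4 arm, 4 were higher and 3 lower with serum, 1 was lower with POG, 1 higher with DEG and none was called with RES, where 4 had an unadjusted p under 0.05. Of all tested genes 42.4% were called with serum, 14.5% with POG, 9.63% with DEG and 11.2% with RES, so 1 of 10 with POG or DEG is near the background. ASNS, asparagine synthetase, was higher with serum (log2 0.70 ± 0.09, edgeR FDR = 3.38e-14) and ATF3, a stress-induced transcription factor, lower with POG (log2 -0.26 ± 0.05, FDR = 8.80e-05). CHAC1, a glutathione-degrading enzyme, was lower than with RES in both other compounds (log2 -0.44 with POG and -0.60 with DEG). With RES, SIL1, a partner of HSPA5, had a log2 fold change of 0.17 (FDR = 0.0188) that was not called without negative control 1 (edgeR FDR = 0.489), RES 1 (0.0774) or RES 3 (0.0996). NFYA, a subunit of the factor that binds CCAAT, had -0.15 (FDR = 0.0269), not called without negative control 1 (0.170), negative control 2 (0.197) or RES 2 (0.158). Nor was it called with plain library totals (0.0885) or no filter on low counts (0.0864).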
